A study of Homo sapiens with 6 samples.

Results

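The genes described here are the protein-coding genes of human chromosome 13 that start before 80 Mb, on genome build hg38, which takes in all of the long arm up to that point. Chromosome 13 has its centromere near one end, so nearly all of its protein-coding genes lie on the long arm. GENCODE 44 places 231 protein-coding genes before 80 Mb, and 228 of them had an ID in the count tables. Of these, 56 had a mean normalized count under 10 over the 6 libraries, and 11 were left out by name (HMGB1, SLC7A1, RFC3, EPSTI1, protocadherin, potassium channel and mitochondrial ribosome genes). That left 161 genes, of 58302 gene IDs in the tables and of 13680 protein-coding genes at the same level in the genome. The interval was picked because the difference between the groups was already seen to be shifted there, so the shift itself and the calls in it are given as a description, with no test of the interval. A normalized count is the number of reads assigned to a gene divided by the DESeq2 size factor of the library.

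RNA was sequenced from A375, an established human melanoma line, in 2 groups of 3 libraries. One group carried an empty vector and the other stably overexpressed HMGB2, both after lentiviral transduction. The replicates are called technical in the study's reporting form, so the spread between them is that of cell pellets from a stable line, not of separate transductions. HMGB2 itself had normalized counts of 7250.1, 7729 and 7562 with empty vector and 15095, 16848 and 14609 with overexpression, a log2 fold change of 1.05 ± 0.10 (SE, adjusted p = 4.4e-22 in DESeq2). The third replicates of both groups stood apart from the other libraries, and the results are also given without them. The libraries held between 45925053 and 56755212 reads assigned to genes.

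HMGB2 is a chromatin protein that bends DNA and binds it with little preference for sequence. Chromosome 13 is known for few genes per megabase and for a base composition low in G and C. The tumour suppressor RB1 and the DNA repair gene BRCA2 lie in the interval, as does EDNRB, an endothelin receptor needed for melanocyte development.

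Most of the 161 genes were higher with HMGB2 overexpression, by a small amount in the median. The median log2 fold change was 0.16, which is 1.11-fold, with quartiles of 0.03 and 0.27, and 125 of the 161 (77.6%) had a positive value. The 71 protein-coding genes of the same chromosome from 80 Mb on had a median of 0.01 with 38 positive, and the 13441 protein-coding genes of the other chromosomes had a median of 2.05e-05 with 6722 positive. The most negative value was that of CDX2 (-1.37, DESeq2 adjusted p = 0.211), an intestinal homeobox gene at 39.4, 32.8 and 10.7 normalized counts with empty vector, and the most positive was that of TRPC4 (2.14). In bulk RNA, a change in the share of cells that express a gene and a change in RNA per cell cannot be told apart.

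Taken library by library, the median over the 161 genes of the log2 level, set against the mean of the empty vector libraries, was -0.07, 0.03 and 0.08 in empty vector replicates 1, 2 and 3. It was 0.14, 0.15 and 0.19 in overexpression replicates 1, 2 and 3. All 3 overexpression libraries lay above all 3 empty vector libraries, and the gap between empty vector replicate 3 and overexpression replicate 1 was smaller than the gap between empty vector replicates 1 and 2. Over the genes past 80 Mb, the medians were -0.03, 0.01 and 0.01 with empty vector and 0.05, 0.07 and -0.01 with overexpression, and these groups overlapped.

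**Figure D1:**
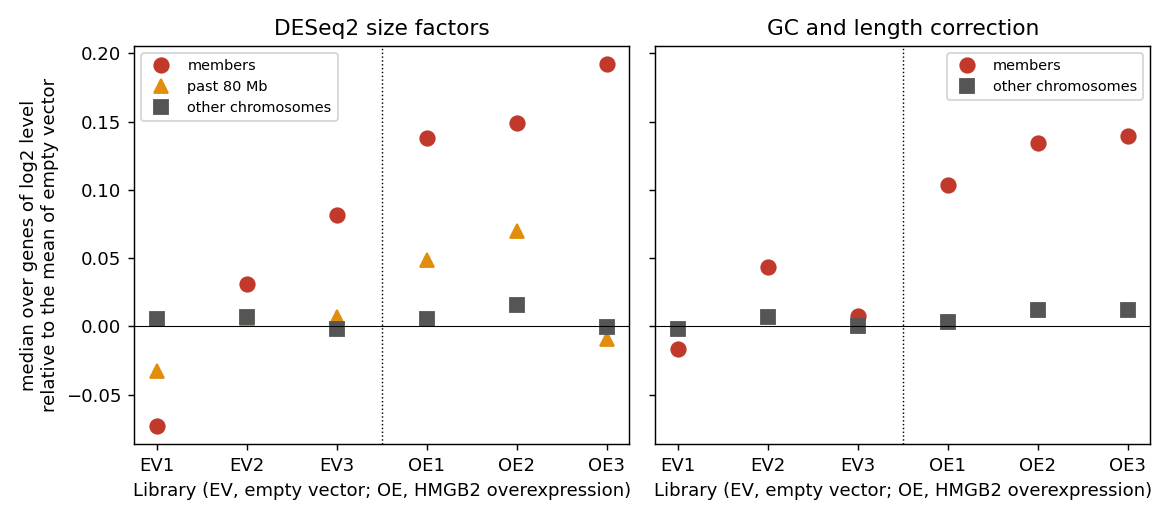
Median over genes of the log2 level relative to the empty vector mean (vertical axis), 1 point per library (horizontal axis; EV, empty vector; OE, HMGB2 overexpression), with DESeq2 size factors at left and corrected for transcript GC content and length at right. The genes before 80 Mb (circles) run from -0.07 to 0.08 with empty vector and from 0.14 to 0.19 with overexpression at left, while genes of other chromosomes (squares) stay near 0; genes past 80 Mb (triangles) are drawn at left only.

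The read share and the counts below restate the same values, from which the interval was picked, so they are descriptions and add no support. The share of all assigned reads that fell in the 161 genes was 0.654%, 0.687% and 0.734% in the empty vector libraries. It was 0.791%, 0.778% and 0.825% in the overexpression libraries. The number of the 161 genes above their empty vector mean was 49, 90 and 98 with empty vector and 131, 123 and 123 with overexpression. Of the 161 genes, 99 (61.5%) lay above that mean in every overexpression library, against 25 of 71 (35.2%) past 80 Mb and 30.3% on other chromosomes. Empty vector replicate 3 was the highest of its group for 83 of the 161 genes (51.6%), and for 42.5% of the genes on other chromosomes. The median over the 161 genes was 0.12 without empty vector replicate 1, which was the lowest, 0.18 without empty vector replicate 3, 0.14 without overexpression replicate 3 and 0.16 in replicates 1 and 2 alone.

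Along the chromosome, the positive median ran over every stretch of 10 Mb before the limit. It was 0.07 from 10 to 20 Mb (4 genes), 0.16 from 20 to 30 Mb (42 genes), 0.10 from 30 to 40 Mb (31 genes), 0.17 from 40 to 50 Mb (45 genes) and 0.11 from 50 to 60 Mb (16 genes). A stretch of 11.0 Mb held none of the 161 genes, and 60 to 70 Mb held 1 gene. The 22 genes from 70 to 80 Mb had a median of 0.19. Past the limit, the medians were 0.01 from 80 to 90 Mb (4 genes), -0.03 from 90 to 100 Mb (22 genes), -0.01 from 100 to 110 Mb (19 genes) and 0.06 from 110 to 120 Mb (26 genes).

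**Figure D2:**
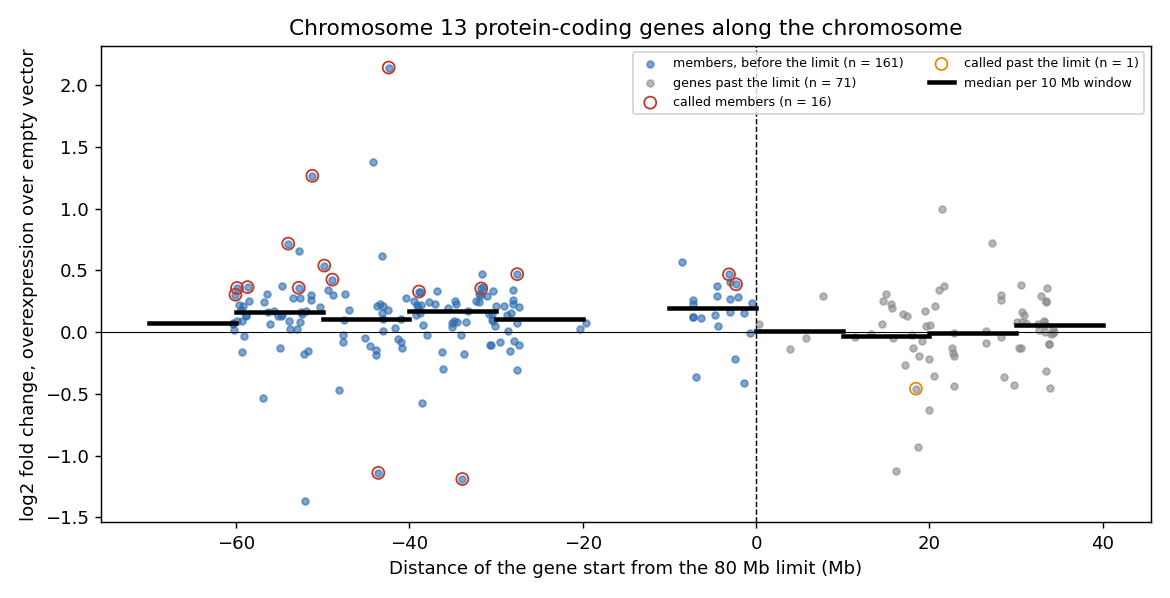
Log2 fold change of overexpression over empty vector (vertical axis) of each chromosome 13 protein-coding gene against the distance of its start from the 80 Mb limit, in Mb (horizontal axis). Blue points are the 161 genes before the limit, grey points the 71 genes past it, circles mark genes called by DESeq2 and black bars are medians per 10 Mb, which lie between 0.07 and 0.19 before the limit and between -0.03 and 0.06 past it.

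The limit fell in a stretch with few genes. The last 3 genes before it were OBI1, a ubiquitin ligase of replication origins, RBM26, an RNA-binding protein, and NDFIP2, an adaptor of NEDD4 ubiquitin ligases. Their log2 fold changes were 0.16, -0.01 and 0.24. The first 3 past it were SPRY2, an inhibitor of receptor tyrosine kinase signalling, and the neuronal membrane genes SLITRK1 and SLITRK6, at 0.06, -0.14 and -0.05. At the limit on level, DCLK1 (mean 14.8, log2 fold change 1.38) and SERTM1 (mean 14.9, 0.23) were just inside, and ATP12A (mean 8.32, 0.72) and LRRC63 (mean 8.13, 0.71) just outside. None of these 10 genes was called.

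The share of positive values differed with the level of the genes. Of the 76 genes whose mean level reached 1000 normalized counts, 69 were positive, with a median of 0.17. The 59 genes from 100 to 1000 had a median of 0.15 with 43 positive, and the 26 genes under 100 had a median of 0.01 with 13 positive. Genes of other chromosomes in the same classes, from high to low level, had medians of -0.004, -0.003 and 0.06. Of these, 48.9%, 49.3% and 54.8% were positive. The abundant genes with a negative value were KLF5, WDFY2, PROSER1, FREM2, LATS2, ZC3H13 and RBM26, a set listed after their values were seen. Genes on the plus strand (73, median 0.15) and on the minus strand (88, median 0.16) gave close values. The 53 non-coding genes of the interval had a median of 0.13 with 33 positive, and none of them was called by DESeq2 (3 had an unadjusted p under 0.05) or by edgeR. An unadjusted DESeq2 p under 0.05 was found for 42 of the 161 genes and for 10 of the 71 past 80 Mb. The 7 genes left out by name that reached the level had a median of 0.17. HMGB1, the paralogue of HMGB2, was the called one of them, at 0.35 ± 0.11 (SE, adjusted p = 0.0284 in DESeq2).

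Over the whole genome, the median difference between the groups went with base composition, and so did differences between libraries of the same group. Over 23 chromosomes, the median GC content of the longest transcripts and the median log2 fold change had a Spearman correlation of -0.91, and -0.90 over the 22 without chromosome 13. These points share the same 6 libraries, so the value is a description. Chromosome 13 had the highest median of the 23 (0.126), followed by chromosome 18 (0.0525), and chromosome 19 had the lowest (-0.0778). The median GC content was 41.3% for the 161 genes, 44.8% for the genes past 80 Mb and 48.1% for those of other chromosomes.

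**Figure D3:**
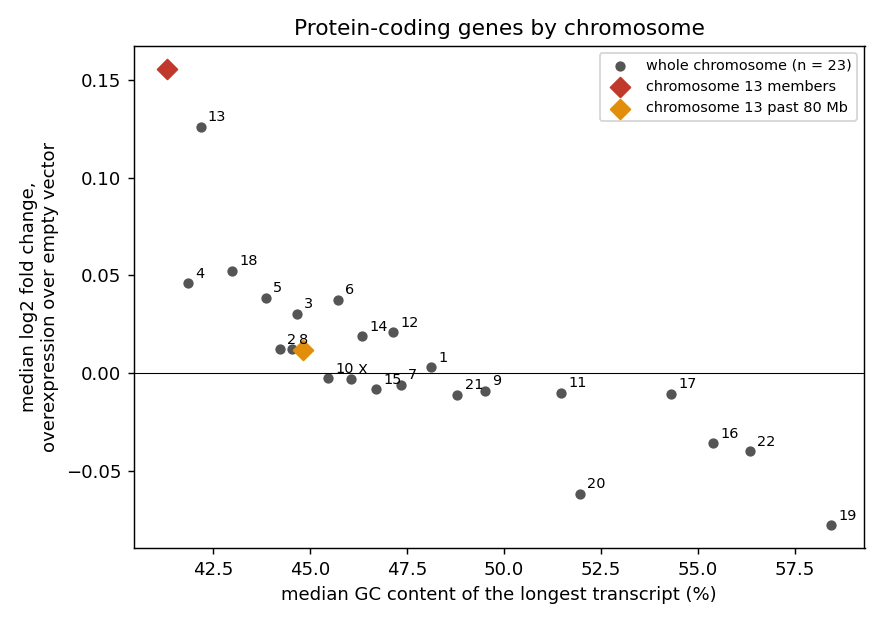
Median log2 fold change of overexpression over empty vector (vertical axis) against the median GC content of the longest transcript in percent (horizontal axis), 1 point per chromosome, with chromosome 13 also split at 80 Mb (diamonds). The chromosomes run downward from low to high GC content, and chromosome 13 lies at 0.126, above chromosome 4 (0.0462) and chromosome 18 (0.0525) at like GC content.

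The genes before 80 Mb had the higher median in 2 of 3 classes of GC content. Protein-coding genes were split into these classes, of equal size, by the GC content of their longest transcript. In the class under 43.4%, the median was 0.18 for the 104 genes before 80 Mb, 0.06 for 4425 genes of other chromosomes and 0.01 for the 27 genes of chromosome 13 past 80 Mb. In the middle class, it was 0.14 for 52 genes before 80 Mb and 0.00 for 4476 genes of other chromosomes. The 5 genes of the interval in the class from 53.4% had a median of -0.18, against -0.07 for 4540 genes of other chromosomes. After each library was corrected for the GC content and length of transcripts, a step chosen after the data had been seen, the median was 0.13 over the 161 genes (73.9% positive), 0.03 past 80 Mb and 0.00 on other chromosomes. With this correction, chromosome 13 had the highest median of the chromosomes (0.0882). The medians by library over the 161 genes were then -0.02, 0.04 and 0.01 with empty vector and 0.10, 0.13 and 0.14 with overexpression. The part of base composition in the shift was not tested.

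Other stretches of the genome also had high medians. Among 292 windows of 10 Mb with 10 or more genes, chromosome 13 from 70 to 80 Mb ranked 3, from 40 to 50 Mb ranked 8, from 20 to 30 Mb ranked 9, from 50 to 60 Mb ranked 29 and from 30 to 40 Mb ranked 31. The highest window, chromosome 6 from 20 to 30 Mb, had a median of 0.36. In all, 9 windows lay above the median of the 161 genes, and those ranked 3, 8 and 9 were of the interval itself.

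Markers of cell types were checked for what else differed between the libraries. Of 8 melanocyte markers, MITF, S100B and EDNRB had means of 1534, 3578 and 3511 normalized counts, TYR and MLANA were near 0, and SOX10 had no read in any library in the column used. That column sets aside reads shared by overlapping genes on opposite strands, so SOX10 is not taken as absent. DCT had a mean of 1.70, and PMEL had 56.7 but kept only 3.37% of its stranded reads in that column. The summed melanocyte markers ran from 7888 to 8274 with empty vector and from 9170 to 9337 with overexpression. EDNRB, itself of the 161 genes, is part of this sum, with means of 3163 and 3859.7. Those of epithelial cells ran from 515 to 681 and from 531 to 1056, those of leukocytes from 489.9 to 521 and from 526 to 701, and those of endothelial cells from 80.6 to 109 and from 97.5 to 107. The leukocyte sum was almost all LYZ, and PTPRC, the pan-leukocyte marker, was at 0 in every library. KRT5, a basal keratin, had 5.05, 11.5 and 279 in the empty vector libraries and lay between 199.9 and 289 with overexpression. Multimapped reads made up 10.6% in overexpression replicate 3 and at most 4.89% elsewhere. The part of these differences in the shift of chromosome 13 was not tested.

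DESeq2 called 14 of the 161 genes higher (8.70%) and 2 lower (1.24%) at an adjusted p under 0.05. Over all genes tested, 2.29% were called higher and 2.64% lower, 4.94% in all. The groups did not overlap for 43 genes that were higher (26.7%) and 3 that were lower (1.86%), where 11.9% and 11.5% of protein-coding genes of the genome did so. Since the interval was picked from this contrast, nothing is read from these shares. The 14 were TRPC4, MTUS2, SHISA2, KATNAL1, CKAP2, KCTD12, HSPH1, SLAIN1, ZDHHC20, RPL21, GJA3, RB1, KBTBD6 and ZMYM2, and the 2 were CCNA1 and LCP1. The edgeR quasi-likelihood test called 6 of the 161 (5 higher and 1 lower), all among these 16. Over all genes, edgeR called 215 higher and 255 lower of 16754 tested. SHISA2, KATNAL1, TRPC4 and CCNA1 were called under each of 15 alternative settings. The other 12 lost the call without empty vector replicate 1 and without overexpression replicate 3, 10 of them without empty vector replicate 2, and 11 each without overexpression replicate 1 or 2. None of the 16 lost it without empty vector replicate 3. The direction of the 16 held in each of the 15 settings, with a log2 fold change from 0.27 to 0.41 for RB1, from 0.39 to 0.53 for CKAP2 and from -1.54 to -0.98 for LCP1.

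**Figure D4:**
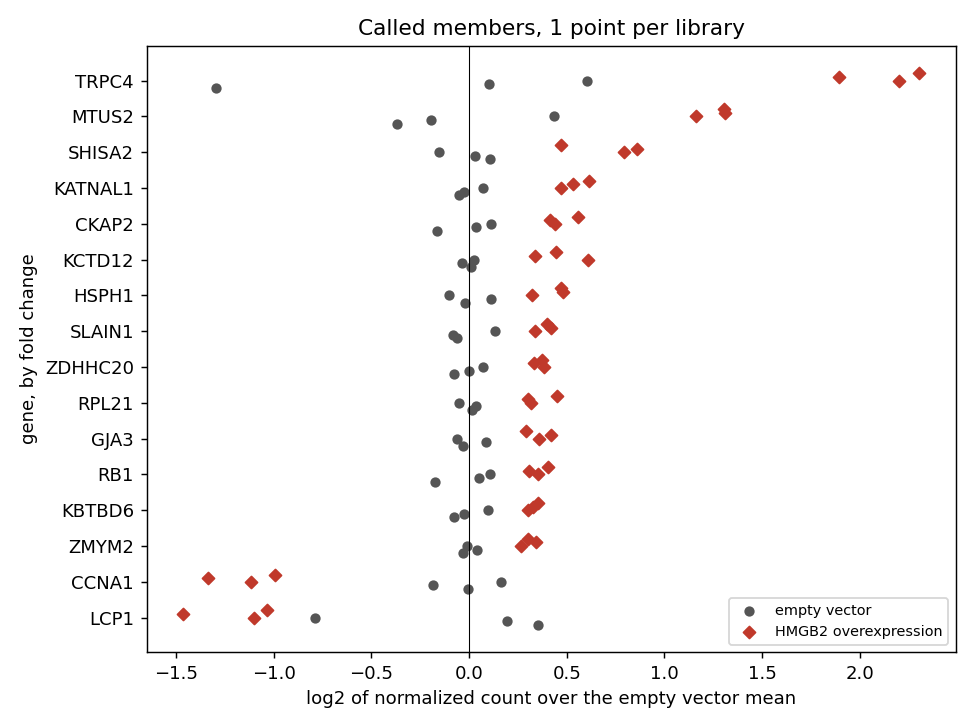
Log2 of the normalized count over the empty vector mean (horizontal axis) for the 16 called genes (vertical axis, ordered by fold change), 1 point per library, circles for empty vector and diamonds for HMGB2 overexpression. The groups do not overlap in any of them, and the 2 lower genes, CCNA1 and LCP1, are at the bottom.

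The promoters of the 4 genes called in each of the 15 settings are shown, since the calls of the other 12 depended on the setting. Each runs 5′ to 3′ on the strand of the gene, from 250 bases before to 50 after the RefSeq start (GRCh38.p14), and capitals mark the GC box letters GGGCGG on either strand (CCGCCC where the match is on the other strand). They lie at chr13:26051967-26052266 (SHISA2, minus strand), chr13:30307502-30307801 (KATNAL1, minus strand), chr13:37869723-37870022 (TRPC4, minus strand) and chr13:36431705-36432004 (CCNA1, plus strand).
SHISA2: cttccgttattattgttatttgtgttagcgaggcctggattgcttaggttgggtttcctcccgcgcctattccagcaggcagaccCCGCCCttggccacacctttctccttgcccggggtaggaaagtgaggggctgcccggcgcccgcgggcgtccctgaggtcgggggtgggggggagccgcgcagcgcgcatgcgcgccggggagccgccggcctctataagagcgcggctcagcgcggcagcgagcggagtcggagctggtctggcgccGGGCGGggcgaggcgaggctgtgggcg
KATNAL1: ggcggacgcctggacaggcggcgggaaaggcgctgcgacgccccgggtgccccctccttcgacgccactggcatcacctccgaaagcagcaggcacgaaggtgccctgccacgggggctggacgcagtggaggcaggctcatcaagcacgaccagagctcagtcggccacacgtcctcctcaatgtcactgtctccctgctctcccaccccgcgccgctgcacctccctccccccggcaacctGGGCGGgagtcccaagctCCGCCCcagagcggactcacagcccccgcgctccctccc
TRPC4: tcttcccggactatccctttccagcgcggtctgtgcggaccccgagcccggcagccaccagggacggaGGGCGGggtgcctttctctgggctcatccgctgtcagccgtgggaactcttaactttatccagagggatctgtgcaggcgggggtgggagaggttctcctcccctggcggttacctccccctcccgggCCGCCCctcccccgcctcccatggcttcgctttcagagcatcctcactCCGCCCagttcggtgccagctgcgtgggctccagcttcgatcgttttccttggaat
CCNA1: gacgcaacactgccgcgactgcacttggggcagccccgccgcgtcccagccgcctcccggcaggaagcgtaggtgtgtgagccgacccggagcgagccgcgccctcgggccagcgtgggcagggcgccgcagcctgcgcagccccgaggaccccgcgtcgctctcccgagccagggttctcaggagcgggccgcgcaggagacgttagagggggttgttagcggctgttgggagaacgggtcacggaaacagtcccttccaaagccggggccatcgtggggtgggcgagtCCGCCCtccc

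All 4 hold at least 1 match to GGGCGG, the gene that was lower included. Of the 161 genes, 137 had a promoter in the RefSeq table, and 88 of these (64.2%) held the letters on either strand, against 44.6% of all 27305 promoters of the same length. The median GC content was 65.3% over the 137 promoters and 58.3% over all. The letters are rich in G and C, so both values move together. The 27305 promoters were not limited by gene type or level, as the 161 genes were, so the sets differ in more than position. Other motifs were searched on both strands, and none of them was in the 4 promoters shown. The AP-1 letters TGACTCA were in 5.11% of the 137 promoters and 4.92% of all, and the E-box letters CACGTG of MITF and MYC in 7.30% and 7.43%. The CCAAT box was in 34.3% and 35.7%, the TATA box letters TATAAA in 9.49% and 12.0%, and the letters TTTGAA in 15.3% and 15.4%. A match of letters is a description and not a binding site.

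Genes of genome stability and cell division numbered 17, with 13 positive and a median of 0.13. All lists by role are drawn from the 161 genes, of which 125 (77.6%) were positive. Counts of positive genes by list are therefore descriptions, and no list is set apart by them. KATNAL1, RB1 and CKAP2 rose, and CCNA1 fell. KATNAL1, which encodes a katanin-like protein that severs microtubules (ENSG00000102781; chr13:30202630-30307551, minus strand), had normalized counts of 679, 691 and 739 with empty vector and 974, 1016 and 1076 with overexpression. The 2 groups did not overlap, with a log2 fold change of 0.54 ± 0.11 (SE, adjusted p = 0.000161 in DESeq2). CKAP2, a protein of the mitotic spindle (chr13:52455429-52476628, plus strand), had 3283, 3762 and 3969 against 4976, 4889 and 5394, with no overlap and a log2 fold change of 0.47 ± 0.11 (SE, adjusted p = 0.00177 in DESeq2). RB1, the pocket protein that restrains E2F factors in the cell cycle (ENSG00000139687; chr13:48303744-48599436, plus strand), had 3568, 4173 and 4344 against 5145, 4979.9 and 5323. Empty vector replicate 1 was the lowest of the 6 for RB1, all overexpression libraries were above the others, and the log2 fold change was 0.35 ± 0.11 (SE, adjusted p = 0.0378 in DESeq2).

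CCNA1 went the other way. It encodes cyclin A1, an A-type cyclin best known from male meiosis (ENSG00000133101; chr13:36431520-36442870, plus strand). Its normalized counts were 616, 545 and 693 with empty vector and 285, 245 and 311 with overexpression, a fall from 618 ± 74.3 to 280.4 ± 33.0 (SD, n = 3 each). The groups were far apart, and the log2 fold change was -1.14 ± 0.16 (SE, adjusted p = 3.48e-10 in DESeq2).

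The other abundant genes of this list were MZT1, a small subunit of the gamma-tubulin ring complex, and SUGT1, a co-chaperone needed at kinetochores. MZT1 had 4392, 4795 and 5928 against 5889.8, 5237 and 6591 and SUGT1 4946, 4806 and 5358 against 5451, 5468 and 6453, with DESeq2 adjusted p = 0.528 and 0.436. SUGT1 did not overlap between groups, and MZT1 did, with empty vector replicate 3 above overexpression replicates 1 and 2. BRCA2, a gene of DNA repair by homologous recombination, had 253, 279 and 163 against 208, 243 and 208 normalized counts and a log2 fold change of -0.08 (SE 0.22). LATS2, a kinase of the Hippo pathway, had 1331, 1449 and 855 against 1184, 1311 and 1069 and a log2 fold change of -0.03 (SE 0.19). In both, empty vector replicate 3 was the lowest of the 6 libraries, and neither was called (DESeq2 adjusted p = 0.941 and 0.979).

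Genes of transcription and chromatin numbered 22, with 16 positive and a median of 0.11. ZMYM2, a zinc finger protein of corepressor complexes, was the called one, at 2629, 2759 and 2662 against 3231, 3401 and 3303 normalized counts. Its libraries were close within each group, and the log2 fold change was 0.30 ± 0.09 (SE, adjusted p = 0.023 in DESeq2). The 4 most abundant were not called. SAP18, of the SIN3 complex, had a log2 fold change of 0.14 (SE 0.12), and TSC22D1, a leucine zipper protein, had 0.20 (SE 0.14). POLR1D, a subunit shared by RNA polymerases I and III, had 0.15 (SE 0.11), and GTF3A, the factor TFIIIA of 5S RNA genes, had 0.27 (SE 0.15). FOXO1, a forkhead factor downstream of AKT, had 588, 593 and 493 against 717, 702 and 571 and a DESeq2 adjusted p of 0.475. KLF5, a Krüppel-like factor of epithelial cells, had the opposite sign. Its normalized counts were 6380.4, 6459 and 4579 with empty vector and 4745, 4924 and 3874 with overexpression, a log2 fold change of -0.36 ± 0.16 (SE, adjusted p = 0.237 in DESeq2). Empty vector replicate 3 lay within the range of the overexpression libraries.

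Genes of ubiquitin and protein turnover were positive in 12 of 12, with a median of 0.21, and 1 was called. UCHL3, named after its values were seen, had 0.29 in the column used and -0.05 with the sum of the stranded columns. KBTBD6, a substrate adaptor of cullin 3 ubiquitin ligases, had 1334, 1381 and 1505 against 1736, 1767 and 1798 normalized counts, with no overlap and a log2 fold change of 0.33 ± 0.10 (SE, adjusted p = 0.0346 in DESeq2). NDFIP2, UBL3 and UFM1, the last encoding a ubiquitin-like modifier, had log2 fold changes of 0.24 (SE 0.17), 0.21 (SE 0.12) and 0.03 (SE 0.10).

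Membrane traffic, Golgi and lysosome genes were positive in 11 of 12, with a median of 0.21, and none was called by DESeq2 or by edgeR. SPART, the spartin gene of hereditary spastic paraplegia, had 3527, 3859.5 and 3766 against 4152, 4263 and 4529.9, with no overlap and a DESeq2 adjusted p of 0.249. TBC1D4, a Rab regulator of glucose transporter traffic, had 2053, 2232 and 2061 against 2321, 2389.5 and 2276, with no overlap and an adjusted p of 0.594. ALG5, an enzyme of N-glycan assembly, and MTMR6, a phosphoinositide phosphatase, had log2 fold changes of 0.21 (SE 0.14) and 0.13 (SE 0.14). The unadjusted p was under 0.05 for 4 of the 12, beside 42 of all 161 genes.

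Mitochondrial and metabolic genes were positive in 11 of 12, with a median of 0.20, and none was called by DESeq2 or by edgeR. DHRS12, named after its values were seen, had 0.16 in the column used and -0.03 with the sum of the stranded columns. ESD, an esterase that clears formaldehyde adducts, had 6194, 6761 and 6922 against 7673, 7192 and 7562. SUCLA2, a subunit of succinyl-CoA ligase in the citric acid cycle, had 2081, 2149.9 and 2494 against 2525, 2660.4 and 2820.4. Both pairs of groups were apart, with DESeq2 adjusted p = 0.416 and 0.269. MICU2, a gatekeeper of the mitochondrial calcium uniporter, had a log2 fold change of 0.25 (SE 0.14), and CRYL1, a metabolic dehydrogenase, had 0.22 (SE 0.12). Both overlapped between groups through empty vector replicate 3. The unadjusted p was under 0.05 for 2 of the 12, beside 42 of all 161 genes.

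RNA processing and translation genes were positive in 9 of 11, with a median of 0.10, and none was called by DESeq2 or by edgeR. This list does not hold RPL21, a ribosomal protein gene that was called higher and is described with the other genes. TPT1, a growth-related protein and the most abundant of the 161 genes, had 33518, 38344 and 53966 against 48713, 45662 and 55440.4 normalized counts. Empty vector replicate 3 was the second highest of the 6, and the log2 fold change was 0.25 ± 0.18 (SE, adjusted p = 0.59 in DESeq2). TPT1 kept 29.0% of its stranded reads in the column used. DIS3 and EXOSC8, which encode the catalytic and a ring subunit of the RNA exosome, had 0.13 (SE 0.10) and 0.10 (SE 0.13), and PSPC1, a paraspeckle protein, had 0.07 (SE 0.10). The unadjusted p was under 0.05 for 0 of the 11, beside 42 of all 161 genes.

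Receptor, ligand and channel genes were listed with earlier results known, so how many were expressed is not compared with other lists. Of 16 listed, 8 were under the level. Of these 8, TNFSF11, the RANK ligand, was called by DESeq2 (adjusted p = 0.0400) at 0, 0 and 1.07 against 5.45, 12.8 and 7.88 normalized counts, and is named after its values were seen. Of the 8 above it, 7 were positive with a median of 0.30, and 2 were called. GJA3, which encodes the gap junction protein connexin 46, had 629, 684 and 617 against 824, 862 and 789 normalized counts, with no overlap and a log2 fold change of 0.36 ± 0.12 (SE, adjusted p = 0.0474 in DESeq2). TRPC4, a cation channel subunit (ENSG00000133107; chr13:37632063-37869802, minus strand), had 6.06, 15.9 and 22.5 against 68.1, 55.2 and 73.2. It was close to absent in empty vector replicate 1, and every overexpression library had more than 2 times the highest empty vector library, with a log2 fold change of 2.14 ± 0.43 (SE, adjusted p = 4.81e-05 in DESeq2). TNFRSF19, a receptor of the tumour necrosis factor family, had 5536, 5394 and 6393 against 7323, 6916 and 7205 and a log2 fold change of 0.31 ± 0.11 (SE, adjusted p = 0.0721 in DESeq2). EDNRB (ENSG00000136160; chr13:77895481-77975529, minus strand) had 2995, 3088 and 3405 against 4014, 3733 and 3832 and a log2 fold change of 0.29 ± 0.10 (SE, adjusted p = 0.0804 in DESeq2). Both were apart between groups and missed the threshold. FLT1, a receptor for vascular endothelial growth factor, had 625, 741 and 427 against 599, 596 and 418, and the groups overlapped with a log2 fold change of -0.15 (SE 0.22).

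Genes of the cytoskeleton and cilia numbered 7, with 6 positive and a median of 0.18. SLAIN1, which binds the growing ends of microtubules, rose from 595, 587 and 683 to 786, 832 and 820.4 normalized counts, a log2 fold change of 0.39 ± 0.12 (SE, adjusted p = 0.0357 in DESeq2). LCP1, which encodes the actin bundling protein L-plastin known from leukocytes, fell from 97.0, 86.8 and 44.001 to 35.4, 27.6 and 37.1. Empty vector replicate 3 was less than 10 normalized counts above overexpression replicate 3, and the log2 fold change was -1.19 ± 0.37 (SE, adjusted p = 0.0285 in DESeq2). LCP1 shares 16.1% of its words with other genes. STARD13, a regulator of small GTPases, IFT88, a carrier of ciliary cargo, and LMO7, a junction protein, had log2 fold changes of 0.18 (SE 0.12), 0.18 (SE 0.11) and 0.05 (SE 0.17). DCLK1, a microtubule-binding kinase, had 7.07, 8.86 and 8.59 against 19.1, 15.8 and 29.3 normalized counts, apart between groups but near the lower limit of level (DESeq2 adjusted p = 0.17).

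The other 60 genes were positive in 40, with a median of 0.10, and 6 of them rose. SHISA2, an endoplasmic reticulum protein that holds back FGF and Wnt receptors (ENSG00000180730; chr13:26044597-26052016, minus strand), had 690.0, 654 and 576 against 1109, 1161 and 886 normalized counts. The lowest overexpression library, replicate 3, was still above all empty vector libraries, and the log2 fold change of 0.72 ± 0.15 (SE, adjusted p = 0.000111 in DESeq2) was the highest among called genes with a mean of 50 or more. HSPH1, a co-chaperone of HSP70, had 6707, 7362 and 6324 against 8487, 9498 and 9415, with no overlap and a log2 fold change of 0.43 ± 0.11 (SE, adjusted p = 0.00336 in DESeq2). KCTD12, an auxiliary subunit of GABA-B receptors, had 333, 322 and 336 against 503, 418 and 450.2, with tight empty vector libraries and a log2 fold change of 0.47 ± 0.14 (SE, adjusted p = 0.0239 in DESeq2).

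ZDHHC20, a palmitoyltransferase, had 7073, 7466 and 7839 against 9748, 9395 and 9678 normalized counts and a log2 fold change of 0.37 ± 0.09 (SE, adjusted p = 0.00299 in DESeq2). RPL21, a protein of the large ribosomal subunit, had 25830.5, 26213 and 24667 against 31870.4, 31574 and 34979 and a log2 fold change of 0.36 ± 0.09 (SE, adjusted p = 0.00486 in DESeq2). The groups did not overlap in either. RPL21 has many processed copies in the genome, and 27.4% of its 50-base words occur in other genes, so its reads are uncertain. MTUS2, a microtubule-associated protein, had 14.1, 15.9 and 24.7 against 40.9, 45.3 and 45.0, apart between groups at a low level, with a log2 fold change of 1.27 ± 0.39 (SE, adjusted p = 0.0303 in DESeq2). Its call was kept in 6 of 15 settings, and was lost in replicates 1 and 2 alone among others. Beside CCNA1 and LCP1, FRY was the remaining gene whose groups were apart in the lower direction, named here after its values were seen. FRY, a scaffold of NDR kinases, had 310.1, 312 and 238 against 209, 209 and 206 and a log2 fold change of -0.47 ± 0.17 (SE, adjusted p = 0.106 in DESeq2).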

How the data were processed

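Poly(A)-selected RNA of 6 libraries, 3 with empty vector and 3 with HMGB2 overexpression, was analysed. The submitters' processing notes name bcl2fastq 2.20, FastQC, Trimmomatic and STAR on GRCh38; other versions and the annotation release of the counting are not given in the sources used here. The authors deposited unnormalized counts of reads for each gene as STAR writes them, with 58302 IDs. The 4 lines of unassigned reads were not used. A read counts once, where it maps to 1 place and falls in 1 gene. The column for either strand was used, in which reads shared by overlapping genes on opposite strands are set aside, so that 1 of the 161 genes kept under 10% of the sum of the stranded columns. Of the 161 genes, 51 shared over 5% of their 50-base words with other genes, which limits how reads can be assigned.

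Positions, gene types, GC content and length of the longest transcript were taken from GENCODE 44 on hg38, in which 57532 IDs matched. Counts were tested over all genes with DESeq2 1.42.0 in R 4.3.3 (Wald test on the group, as in the study), with Benjamini-Hochberg adjusted p under 0.05 as the call, and log2 fold changes are unshrunken with their standard error (SE). A count of 0.5 was added for log2 levels by library. With 3 libraries against 3 an exact permutation test cannot give a p under 0.1, so none was used. Alternatives were edgeR 4.0.16, other scaling and filters, the stranded sum, a replicate block, a term or fit for the third replicates, and leaving out each library.

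The genes of the interval, the 8 lists by role and the rules for naming were chosen with earlier results of these data known. Named genes were, among called genes with a mean of 50 or more and no overlap, up to 10 rises and 10 falls, those nearest each limit, the 4 most abundant of each list, BRCA2, RB1, LATS2, FOXO1, KLF5 and EDNRB, and other called genes. Of these, 1 gene is not reported here. Genes added after their values were seen are marked. Libraries of 45925053 to 56755212 reads make counting error small beside the spread between replicates for abundant genes, and not for those near the minimum mean of 10.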

Additional observations from a re-analysis of the deposited data

How the results depend on the processing

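The median log2 fold change over the 161 genes ran from 0.12 to 0.18 under the 18 alternatives. The interval was picked from this contrast, and every alternative used all or some of the same libraries. The positive direction is therefore a description and not a test. The pooled SD of the library medians within groups was 0.06. The number of genes called depended on the setting. Against 14 higher and 2 lower, edgeR called 5 and 1, DESeq2 without its independent filter called 9 higher, and TMM factors, a filter on low counts, the stranded sum and a mean of 50 or more gave 12 to 14 higher and 2 lower. A term for the third replicates gave 48 higher and 4 lower, and replicates 1 and 2 alone gave 42 and 5. Calls over all genes also moved, from 432 higher and 498 lower of 18836 to 1374 and 1359 of 15777 with that term. They were 1203 and 1418 of 15028 in replicates 1 and 2. EdgeR called 215 and 255 of 16754, and DESeq2 without its independent filter called 336 and 422 of 32922. TMM factors, the filter on low counts and the stranded sum gave 422 to 467 higher and 497 to 573 lower over all genes. Among the 161 genes, leaving out 1 library gave from 3 to 45 higher and from 1 to 5 lower. The 3 were without empty vector replicate 1 or overexpression replicate 3, and the 45 without empty vector replicate 3. Over all genes, 1334 were then called higher without empty vector replicate 3 and 155 without empty vector replicate 1. The cause was not tested. The correction for GC content and length, chosen after seeing the data, gave 21 higher and 3 lower, with 652 and 717 of 18224 over all genes.

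With the replicate number as a block, 35 of the 161 genes were called higher and 3 lower, with 886 and 940 of 14552 over all genes. MTUS2 lost its call. The deviations of same-numbered libraries correlated at 0.0912, 0.129 and 0.333, and 1 of 3 overexpression libraries correlated best with its own number, so the numbers were not taken to pair the libraries. 

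The median past 80 Mb, at 0.01, ran from -0.028 (without overexpression replicate 2) to 0.046 (without empty vector replicate 3). HMGB2 ran from 0.98 to 1.09 over libraries left out. Genes near 0 changed sign, and none of them was called in any of these fits. RBM26 was 0.0093 with the block, 0.0079 with the term for the third replicates and -0.16 to 0.12 with a library left out. UFM1 was -0.0082 in replicates 1 and 2 alone and -0.018 after the GC correction. LMO7 was -0.042 in replicates 1 and 2 alone and ran from -0.10 to 0.15 with a library left out. LATS2 was 0.00074 after the GC correction and ran from -0.23 to 0.12 with a library left out. The ranges with a library left out were -0.34 to 0.029 for FLT1, -0.27 to 0.078 for BRCA2, -0.13 to 0.025 for SLITRK6 and -0.11 to 0.49 for SERTM1. Over named genes and settings together, 670 values kept their direction and side of the threshold, 75 lost the call, 62 gained it and 18 changed sign.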
